A study of Mus musculus with 15 samples.

Results

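The genes described here encode 10 receptors of the CD28 family and its functional neighbours on T cells: Cd28, Icos, Ctla4, Pdcd1, Btla, Lag3, Tigit, Cd226, Havcr2 and Cd96. They were chosen by name and are 10 of the 48795 genes listed for each sample. Their transcripts were followed in invariant natural killer T (iNKT) cells, innate-like T lymphocytes whose semi-invariant TCR recognises lipids presented by CD1d, and the question was how the levels differ between the lymphoid tissues in which the cells reside.

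The cells were sorted from thymus, spleen, mesenteric lymph node (mLN) and inguinal lymph node (iLN) of wild-type C57BL/6 mice aged 6 weeks. The gate took cells that bound CD1d tetramer and TCRβ antibody and lacked B220, CD11b, CD11c and CD8. Of the 15 RNAseq samples, 4 came from thymus, 4 from spleen, 4 from mLN and 3 from iLN (replicates 2, 3 and 4), with the remaining iLN sample not analysed here. The batch label is First for replicates 3 and 4 (8 samples) and Second for replicates 1 and 2 (7 samples, with 1 from iLN). No treatment of the mice is given in the labels. The labels speak of biological replicates and leave unsaid if each came from 1 animal or several, and p-values measure the spread between these samples. Lymph nodes (LNs) were briefly digested with enzymes before sorting whereas thymus and spleen were mashed, so tissue and preparation cannot be told apart. In bulk RNA of a sorted population, fewer cells with a transcript and less transcript per cell cannot be told apart either.

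A T cell needs a second signal beside its TCR, and CD28 delivers it when it binds CD80 or CD86 on another cell. ICOS is a second activating member of that family, whereas CTLA-4 competes with CD28 for the same ligands and PD-1 and BTLA recruit phosphatases that dampen the signal. A separate trio shares ligands of the nectin family: CD226 activates, and TIGIT and CD96 compete with it. LAG-3 and TIM-3 are further inhibitory receptors that T cells acquire on repeated stimulation, and iNKT cells, which carry a memory-like phenotype from the thymus on, are known to express several of these receptors at rest.

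Each gene was found in GRCm38 with the GENCODE vM21 annotation, and all are protein coding. Cd28 (chr1:60716800-60773359), Ctla4 (chr1:60887000-60915832) and Icos (chr1:60977927-61000320) lie side by side on the plus strand, with gaps of 113.6 kb and 62.1 kb and 0 other protein-coding genes between them. Pdcd1 (chr1:94038305-94052553, minus strand) is on the same chromosome. On chromosome 16 lie Tigit (chr16:43648867-43664146, minus strand), Btla (chr16:45224315-45257670, plus strand) and Cd96 (chr16:46035657-46120251, minus strand). Lag3 (chr6:124904361-124911705, minus strand) and Havcr2 (chr11:46454935-46481255, plus strand) lie on chromosomes of their own, as does Cd226.

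RefSeq promoter windows on GRCm38.p6, running from 250 bases before to 50 after the start site, were at hand for 6 of the 10 genes (Ctla4, Pdcd1, Btla, Tigit, Havcr2 and Cd96). The windows of Ctla4 and Cd96 are shown because transcripts of both genes were higher in mLN than in thymus, from starting levels that differed widely. Capitals mark matches, on either strand, to 6 short motifs: the NFAT core GGAAA, AP-1 TGANTCA, the Runx core TGTGGT, the T-box core TCACAC, the TATA box TATAAA and the GC box GGGCGG. The Ctla4 window (chr1:60908775-60909074, plus strand) lies inside the annotated span of the gene, and the Cd96 window (chr16:46120199-46120498) is read on the minus strand.
Ctla4: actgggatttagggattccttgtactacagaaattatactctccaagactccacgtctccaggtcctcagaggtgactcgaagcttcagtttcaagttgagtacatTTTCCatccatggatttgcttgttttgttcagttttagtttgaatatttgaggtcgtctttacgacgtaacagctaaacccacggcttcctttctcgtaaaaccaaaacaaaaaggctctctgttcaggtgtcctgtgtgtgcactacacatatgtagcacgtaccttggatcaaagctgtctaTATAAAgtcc
Cd96: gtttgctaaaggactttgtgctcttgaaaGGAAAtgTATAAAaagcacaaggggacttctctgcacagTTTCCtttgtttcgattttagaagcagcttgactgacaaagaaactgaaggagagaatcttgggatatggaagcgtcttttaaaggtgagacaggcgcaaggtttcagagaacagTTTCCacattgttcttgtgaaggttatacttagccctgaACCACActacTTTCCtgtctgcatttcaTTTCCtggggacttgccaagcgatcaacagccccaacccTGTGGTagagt
The Ctla4 window held 1 NFAT core and 1 TATA box, and the Cd96 window held 5 NFAT cores, 2 Runx cores and 1 TATA box. Among 32544 windows of the same length, 61.5% held an NFAT core, 16.7% a Runx core and 13.6% a TATA box. Further, 7.8% held AP-1, 14.3% a T-box core and 35.9% a GC box, none of which was found in either of these windows. Such matches only describe the letters of the window.

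Total counts ran from 1152702 (thymus replicate 2) and 4080550 (the second lowest) to 8670570, with a median of 5327351. Genes of ribosomal RNA took 17.6% to 48.1% of the counts. The 8 markers of T and iNKT cells were all found and summed to 3486 to 7971 TPM (transcripts relative to length, on a scale common to all samples) over the samples. The 2 CD8 T cell markers summed to at most 19.2 TPM. The 6 B cell markers summed to 91.3 to 316 TPM, and the 9 myeloid or dendritic markers summed to 28.7 to 113 TPM. Spleen replicate 1 stood apart with 43.1 CPM (counts scaled to the library's size) of the myeloid gene Lyz2 and 20 CPM of the B cell gene Cd79a, the highest of the 15 samples for each.

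Per transcript length, the activating receptors and Cd96 dominated the set. Over the 15 samples, mean levels were 232 TPM for Icos and 173 TPM for Cd28, followed by 105 TPM for Cd96 and 85.9 TPM for Cd226. Btla was intermediate with 32.8 TPM. The classical checkpoint genes were scarce, with 6.81 TPM for Pdcd1, 2.97 TPM for Ctla4, 2.44 TPM for Tigit, 1.21 TPM for Lag3 and 0.137 TPM for Havcr2. Ranked among all listed genes by mean TPM, Icos was at place 354 and Havcr2 at place 19148. Havcr2, which encodes TIM-3, had a count in 5 of the 15 samples and was the only member that did not pass the filter on low counts, so 9 of the 10 genes were tested.

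**Figure D1:**
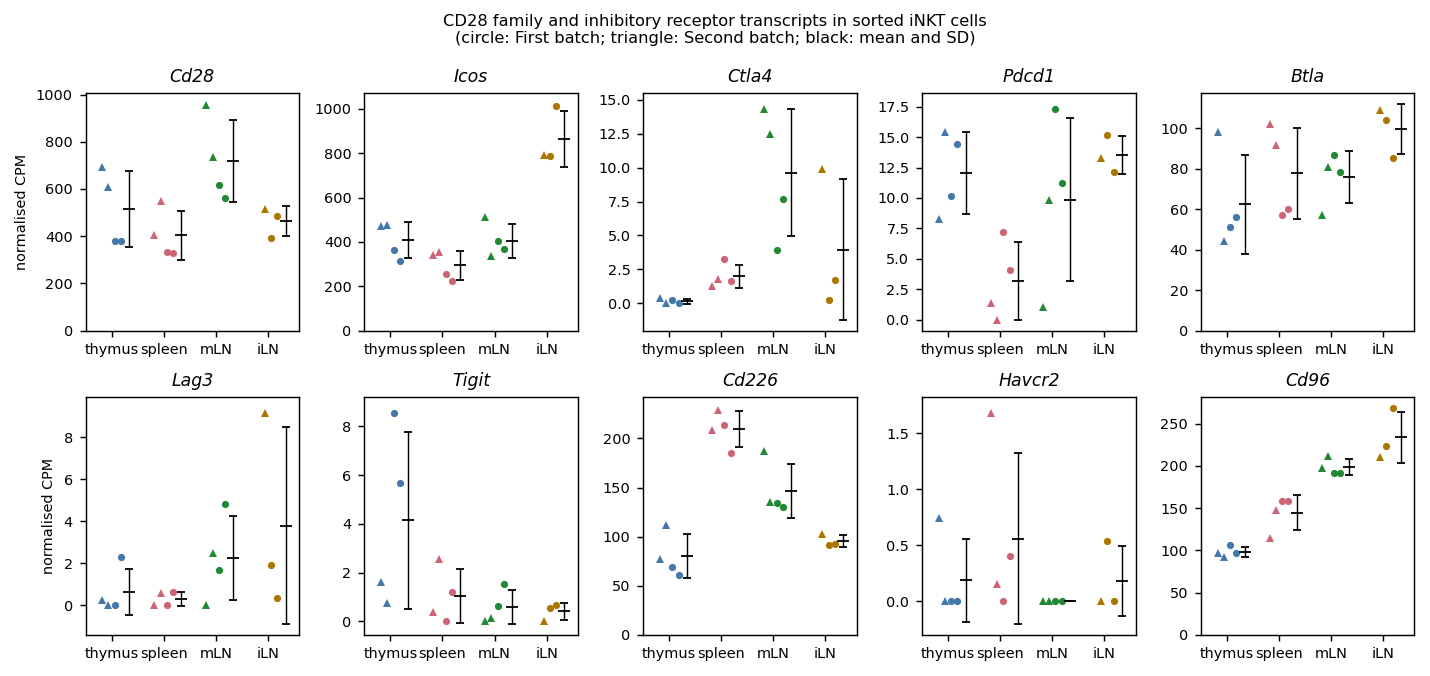
Normalised CPM (y axis) of each of the 10 genes in the 15 samples, by tissue (x axis), with circles for the First and triangles for the Second batch and black bars for mean and SD (n = 4, in iLN n = 3). Icos stands highest in iLN (787 to 1012 CPM), Cd226 in spleen (185 to 229 CPM), and Cd96 is higher in each LN sample (192 to 268 CPM) than in each thymus or spleen sample (92.6 to 158 CPM).

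Between tissues, counts were normalised by the TMM method and fitted for all genes at once by quasi-likelihood in edgeR, with terms for tissue and batch. The call in a pair of tissues, or in LNs against spleen and thymus (the mean of mLN and iLN minus the mean of the other 2 tissues), required a fold change over 1.5 and a p-value, adjusted by Benjamini-Hochberg, under 0.01. Adjusted p-values are from that edgeR model unless another test is named, and log2 fold changes are given with their SE. Over the 4 tissues together, at the adjusted p-value alone, 4 of the 9 tested members were called (Icos, Cd226, Cd96 and Cd28), where 3.38% of all 13600 tested genes were.

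Pair by pair, the 9 members gave 10 calls over 6 pairs. There was 1 call in thymus against spleen (1.32% of all tested genes were called), 1 in mLN against spleen (0.654%) and 2 in iLN against spleen (1.55%). Against thymus, 3 members were called in mLN (1.60%) and 2 in iLN (1.5%), and 1 was called in iLN against mLN (0.471%). In LNs against spleen and thymus 2 were called, Icos and Cd96 (1.72%). The median log2 fold change of the 9 members in that last comparison was 0.82, beside 0.02 for all genes tested. This median is the value of Icos itself, and Ctla4 (3.01), Lag3 (2.66) and Pdcd1 (0.93), which lie above it, were not called. The genes were chosen with earlier results of these data known, so the median is no test of the set. As the pairs share samples, the 10 calls are not independent of each other.

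**Figure D2:**
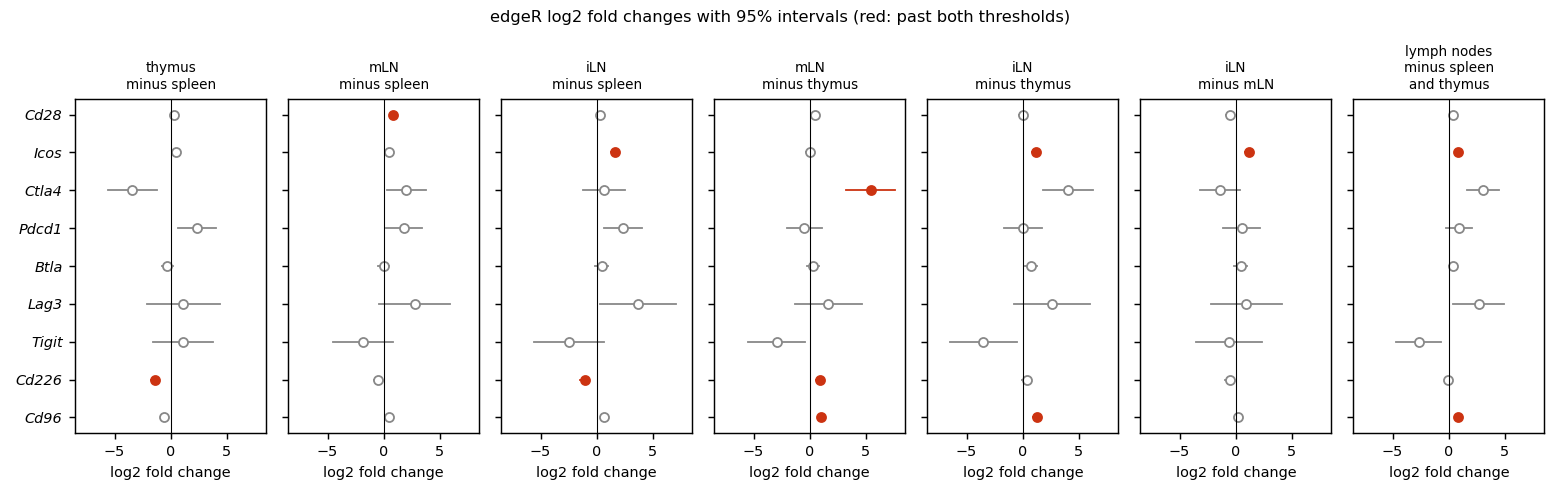
Log2 fold change (x axis) of the 9 tested genes (y axis) in the 6 pairs of tissues and in LNs against spleen and thymus, with 95% intervals from the edgeR model, filled red where the gene was called. The 4 abundant genes Cd28, Icos, Cd226 and Cd96 have short intervals, whereas those of Ctla4, Pdcd1, Lag3 and Tigit span several log2 units.

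Icos, the inducible costimulator, was the most abundant member in iLN. In the 3 iLN samples it reached 793, 787 and 1012 CPM in replicates 2, 3 and 4. In mLN replicates 1 to 4 it was at 514, 337, 405 and 366 CPM, and in thymus at 473, 476, 365 and 313 CPM. Spleen had the lowest values, with 341, 356, 254 and 225 CPM. The iLN samples lay above every sample of the other 3 tissues, while thymus, mLN and spleen overlapped.

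The means followed the order iLN (864 ± 128 CPM, SD, n = 3), thymus (407 ± 81.3, n = 4), mLN (406 ± 77.3, n = 4) and spleen (294 ± 64.4, n = 4). Icos rose in iLN by 1.64 ± 0.17 on the log2 scale against spleen (adjusted p = 1.66e-05), by 1.17 ± 0.17 against thymus (adjusted p = 0.000498) and by 1.15 ± 0.17 against mLN (adjusted p = 0.00101). Thymus and mLN did not differ beyond their spread (0.01, 95% interval -0.32 to 0.35). The fold changes of mLN (0.48 ± 0.16, adjusted p = 0.177) and thymus (0.47 ± 0.16, adjusted p = 0.184) against spleen did not pass the threshold. LNs against spleen and thymus gave 0.82 ± 0.12 (adjusted p = 0.000290), although LN and other samples overlapped, with mLN at the thymus level.

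Within batches the iLN excess over spleen was 1.89 in the First batch (adjusted p = 0.000997) and 1.17 in the Second (adjusted p = 0.142), which holds a single iLN sample. The calls of iLN against thymus and mLN were lost without replicate 3 (1.2, adjusted p = 0.0259, and 1.23, adjusted p = 0.0355) and without replicate 4 (0.89, adjusted p = 0.0491, and 0.95, adjusted p = 0.0624). In LNs against spleen and thymus the call was lost without the same replicates (0.81, adjusted p = 0.0207, and 0.65, adjusted p = 0.0243).

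Gm37039, an annotated transcript of unknown status on the same strand inside Icos (chr1:60989479-60991963), held 82 to 102 CPM in iLN and 16.2 to 68.5 CPM in the other tissues. When its counts were added to those of Icos the change of iLN against spleen was 1.65 (adjusted p = 1.02e-05). Markers of NKT17 cells, the iNKT subset that makes IL-17, were also high in iLN. The 6 NKT17 markers summed to 130 to 328 TPM in iLN and to at most 50.2 TPM in any sample of the other tissues, although their cytokine gene Il17a was at 0 in 2 of the 3 iLN samples. The part of this subset in the Icos difference was not tested.

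Cd28, the archetypal costimulatory receptor, was highest in mLN. Its mLN values were 957, 736, 618 and 561 CPM in replicates 1 to 4, and its spleen values 403, 549, 332 and 329 CPM. Thymus had 695, 610, 379 and 380 CPM, and iLN had 514, 394 and 487 CPM in replicates 2, 3 and 4. All mLN samples lay above all spleen and iLN samples, whereas mLN and thymus overlapped. In every tissue the samples of the Second batch (replicates 1 and 2, in iLN replicate 2 alone) had higher values than those of the First. The CPM values and their means are not adjusted for batch, and iLN has fewer samples of the Second batch than the other tissues.

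The mean of mLN (718 ± 175 CPM, n = 4) was followed by thymus (516 ± 162, n = 4), iLN (465 ± 63.1, n = 3) and spleen (403 ± 103, n = 4). Cd28 rose in mLN against spleen by 0.83 ± 0.14 on the log2 scale (adjusted p = 0.00464). The change was 0.82 in the First batch alone and 0.83 in the Second, neither of which passed the threshold (adjusted p = 0.11 and 0.297). Without spleen replicate 1 it was 0.74 ± 0.15 and the call was lost (adjusted p = 0.019), as it was on leaving out any of the 4 replicate numbers (0.69 without replicate 1, 0.96 without replicate 2, 0.81 without replicate 3 and 0.85 without replicate 4, with adjusted p from 0.0158 to 0.0988). The neighbouring steps of the order did not pass the threshold: 0.50 ± 0.14 in mLN against thymus (adjusted p = 0.0663), -0.01 in iLN against thymus (95% interval -0.33 to 0.32), and 0.32 in iLN against spleen (adjusted p = 0.301). In iLN against mLN the log2 difference was -0.51 ± 0.16 (adjusted p = 0.111), and LNs against spleen and thymus gave 0.41 ± 0.10 (adjusted p = 0.0299). The 5 NKT2 markers, all detected in each tissue, summed to 181 to 288 TPM in mLN, against 81.6 to 153 in thymus, 108 to 168 in spleen and 121 to 194 in iLN. Il17rb, Ccr7 and Plac8 had their highest means in mLN. Gata3 (75.7 CPM in mLN, 94.1 in spleen) and Il4 (6.64 and 6.7 CPM) did not. The part of NKT2 cells in the Cd28 difference was not tested.

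Ctla4, which encodes the inhibitory rival of CD28, was nearly silent in thymus. The 4 thymus samples held 4 counts in all, with 0.37, 0, 0.275 and 0 CPM in replicates 1 to 4. A count of 0 allows up to 3 counts, or 2.21 CPM in replicate 2 and 0.569 CPM in replicate 4, for counting error alone. Spleen had 1.28, 1.8, 3.24 and 1.63 CPM, every sample above every thymus sample.

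In mLN, Ctla4 reached 14.3, 12.5, 3.95 and 7.71 CPM, above all samples of thymus and spleen. The iLN samples were scattered, with 9.87, 0.271 and 1.71 CPM in replicates 2, 3 and 4, and overlapped with all other tissues. Means were 9.6 ± 4.67 CPM in mLN (n = 4), 3.95 ± 5.18 in iLN (n = 3), 1.99 ± 0.862 in spleen (n = 4) and 0.161 ± 0.19 in thymus (n = 4).

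Ctla4 was called higher in mLN than in thymus, by 5.43 ± 1.03 on the log2 scale (adjusted p = 0.00420, 95% interval 3.26 to 7.59), a size that rests on those 4 thymus counts. The call did not survive the loss of any replicate number (4.97 to 5.94, adjusted p from 0.0168 to 0.0853) or of the shallow thymus replicate 2 (5.22, adjusted p = 0.0181). It was 5.34 in the First batch alone (adjusted p = 0.14) and 5.49 in the Second (adjusted p = 0.15). With counts thinned to the smallest library it was 3.42 ± 1.44 (adjusted p = 0.393), and with limma on log2(TPM + 0.1) it was 4.82 (adjusted p = 0.0123). Differences that missed the threshold were 4.03 ± 1.05 in iLN against thymus (adjusted p = 0.0398), 2.0 ± 0.82 in mLN against spleen (adjusted p = 0.303), -3.43 ± 1.03 in thymus against spleen (adjusted p = 0.104) and 3.01 ± 0.67 in LNs against spleen and thymus (adjusted p = 0.0125).

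Regulatory T cells also carry CTLA-4, and their markers were unequal between tissues. The 7 markers summed to 32.4 to 48.2 TPM in thymus, 65 to 142 in spleen, 78.8 to 124 in mLN and 139 to 224 in iLN, and 1 of them was at 0 in all thymus samples. Most of each sum came from Ikzf2 (27.5 to 42.5 TPM in thymus, 52.6 to 99.2 in iLN) and Il2ra (1.95 to 4.51 and 53.7 to 114). As the paper found CD25, which Il2ra encodes, on LN iNKT cells, the sums are no measure of regulatory T cells alone. Foxp3, their defining factor, was at 0, 34, 4.16 and 4.24 CPM in mLN replicates 1 to 4 and at 10.6, 15.2 and 6.5 CPM in iLN, against at most 2.24 CPM in thymus and spleen. The part of such cells in the Ctla4 differences was not tested.

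Within a library, the log2 ratio of Ctla4 to Cd28 (TPM + 1) averaged -6.99 ± 0.89 in thymus, -5.73 ± 0.67 in spleen, -4.96 ± 0.51 in mLN and -5.66 ± 1.15 in iLN. Cd28 exceeded its rival in each tissue. In thymus, where Ctla4 averaged 0.233 TPM, the added 1 TPM largely sets the numerator of the ratio. The ratio of LNs minus that of spleen and thymus was 1.10, for which an exact permutation test (two-sided) gave p = 0.0415, and 0.12 after adjustment over the 21 ratio tests made. In the First batch alone the difference was -0.03 and in the Second 2.41, so its direction was not the same in both batches.

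Pdcd1, which encodes PD-1, was low but detected in 14 of the 15 samples. Thymus had 8.27, 15.4, 10.2 and 14.4 CPM in replicates 1 to 4, and iLN 13.3, 15.2 and 12.1 CPM in replicates 2 to 4. Spleen had 1.38, 0, 7.23 and 4.07 CPM, below every sample of thymus and iLN. In mLN the values were spread widely, with 1.04, 9.87, 17.3 and 11.2 CPM. Means were 13.5 ± 1.53 CPM in iLN (n = 3), 12.1 ± 3.41 in thymus (n = 4), 9.84 ± 6.69 in mLN (n = 4) and 3.17 ± 3.19 in spleen (n = 4). Although thymus and iLN did not overlap with spleen, no pair passed the threshold. The log2 difference from spleen was 2.32 ± 0.80 in thymus (adjusted p = 0.196), 1.83 ± 0.77 in mLN (adjusted p = 0.321) and 2.34 ± 0.82 in iLN (adjusted p = 0.132). Within batches it was smaller in the First (1.12 in thymus, 1.26 in iLN) than in the Second (3.96 and 4.14), where spleen replicate 2 had 0 counts.

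Btla, the receptor for HVEM, was the member among the 5 most abundant that was not called over the 4 tissues (adjusted p = 0.345). Thymus had 98.4, 44.1, 51 and 56.3 CPM, spleen 102, 91.8, 57.3 and 60.2, mLN 57.1, 81.1, 86.8 and 78.4, and iLN 109, 104 and 85.5 CPM. All 4 groups overlapped, with means of 99.4 ± 12.2 CPM in iLN (n = 3), 77.9 ± 22.5 in spleen, 75.8 ± 13 in mLN and 62.4 ± 24.5 in thymus (n = 4 each). The log2 difference that came closest to the threshold was 0.71 ± 0.26 in iLN against thymus (adjusted p = 0.162). In mLN against spleen it was 0.00, with a 95% interval from -0.49 to 0.50.

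The nectin-binding receptors divided the tissues in another way. Cd226, the activating member (DNAM-1), was highest in spleen, with 209, 229, 214 and 185 CPM in replicates 1 to 4. The mLN samples followed with 187, 135, 134 and 130 CPM. Lowest were iLN, with 103, 91 and 92.7 CPM, and thymus, with 77.5, 112, 69.4 and 60.9 CPM. All thymus and iLN samples lay below all spleen and mLN samples, and only mLN replicate 1 reached the range of spleen.

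On average Cd226 was at 209 ± 18.3 CPM in spleen (n = 4), 147 ± 27 in mLN (n = 4), 95.6 ± 6.58 in iLN (n = 3) and 80.1 ± 22.6 in thymus (n = 4). It fell by 1.42 (SE 0.16) on the log2 scale in thymus against spleen (adjusted p = 2.40e-05). It fell by 1.08 (SE 0.18) in iLN against spleen (adjusted p = 0.00129), and it was higher in mLN than in thymus by 0.90 ± 0.16 (adjusted p = 0.00273). The steps from spleen to mLN (-0.52 ± 0.16, adjusted p = 0.126), from mLN to iLN (-0.56 ± 0.17, adjusted p = 0.118) and from thymus to iLN (0.33, adjusted p = 0.356) did not pass the threshold. LNs against spleen and thymus gave -0.09 ± 0.12 (adjusted p = 0.758), as the contrast averages spleen and thymus, which stood at opposite ends.

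The thymus change was -1.63 in the First batch (adjusted p = 0.0024) and -1.23 in the Second (adjusted p = 0.128), and it was called on leaving out each replicate number. The change of iLN against spleen was lost without replicate 2, 3 or 4 (-1.03 to -1.14, adjusted p from 0.0108 to 0.0506), and that of mLN against thymus without replicate 1, 3 or 4 (0.77 to 0.88, adjusted p from 0.0431 to 0.0676). In the First batch alone these were -1.14 and 1.01 (adjusted p = 0.0132 and 0.0282), and in the Second -1.10 and 0.78 (adjusted p = 0.33 and 0.402). NKT1 markers (5 of 5 detected) summed to 829 to 1371 TPM in spleen, 634 to 868 in mLN and 662 to 735 in iLN, and to 882 to 1411 in thymus, where Cd226 was lowest. Their part in the Cd226 differences was not tested.

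Cd96, whose product competes with CD226 for the same ligand, was lowest in thymus, intermediate in spleen and highest in the LNs. Thymus had 96.6, 92.6, 106 and 97.3 CPM, a narrow range below all other samples. Spleen had 115, 148, 158 and 158 CPM. In mLN it was at 197, 212, 192 and 192 CPM, and in iLN at 210, 224 and 268 CPM. The 7 LN samples lay above the 8 samples of spleen and thymus without overlap, and iLN overlapped with mLN.

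Means were 234 ± 30.3 CPM in iLN (n = 3), 198 ± 9.24 in mLN (n = 4), 145 ± 20.4 in spleen (n = 4) and 98.2 ± 5.79 in thymus (n = 4). Cd96 rose in LNs against spleen and thymus by 0.84 ± 0.10 on the log2 scale (adjusted p = 6.28e-05). Against thymus it rose by 1.02 ± 0.14 in mLN (adjusted p = 0.000159) and by 1.23 ± 0.15 in iLN (adjusted p = 6.40e-05). Against spleen the differences missed the threshold: 0.67 ± 0.15 in iLN (adjusted p = 0.0118), 0.46 ± 0.14 in mLN (adjusted p = 0.116) and -0.56 ± 0.14 in thymus (adjusted p = 0.0335). Between iLN and mLN it was 0.21 (95% interval -0.10 to 0.52).

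Leaving out any replicate number did not end the call in LNs against spleen and thymus, which was 0.76 in the First batch alone (adjusted p = 0.0106) and 0.89 in the Second (adjusted p = 0.12). The call of iLN against thymus was lost without replicate 4 (1.11, adjusted p = 0.0157). Over 20 alternative settings, that call was past the thresholds in 18 and the call of mLN against thymus in 16. The summed NKT1 markers lay at 634 to 868 TPM in LN samples and at 829 to 1411 TPM in spleen and thymus samples, and their part in the Cd96 difference was not tested.

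**Figure D3:**
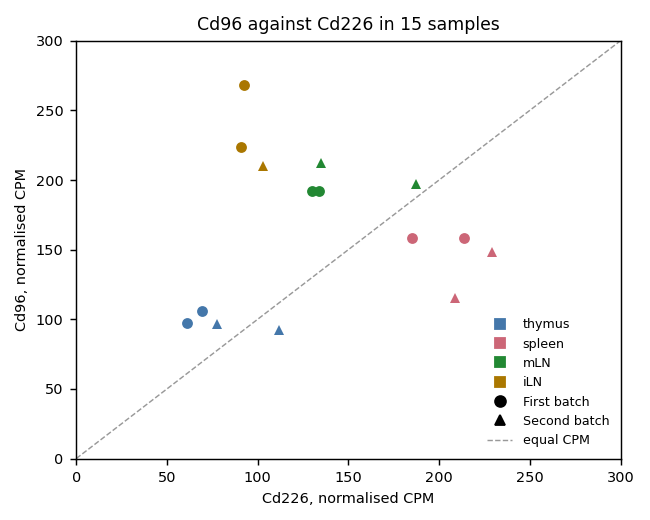
Normalised CPM of Cd96 (y axis) against Cd226 (x axis) in the 15 samples, coloured by tissue, with circles for the First and triangles for the Second batch and a dashed line where both genes have equal CPM. The 4 spleen samples lie below the line, the 7 LN samples above it, and thymus, with 3 samples above and 1 below, has low values of both.

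Since CD96 and CD226 bind the same ligand, their transcripts were also compared within each library. The log2 ratio of Cd96 to Cd226 (TPM + 1) was 1.34 ± 0.27 in iLN (n = 3), 0.51 ± 0.27 in mLN (n = 4), 0.31 ± 0.47 in thymus (n = 4) and -0.53 ± 0.32 in spleen (n = 4). All spleen samples were below 0 (-0.95 to -0.16) and all LN samples above it (0.13 to 1.61). LNs minus spleen and thymus gave 0.97, for which the exact permutation test (two-sided) gave p = 0.00622, and 0.1 after adjustment over the 21 ratio tests. In this ratio, 4 pairs of tissues reached the smallest p that 4 samples against 4, or 3 against 4, allow in that exact test (0.0286), and none passed after adjustment (0.1). The difference of LNs from spleen and thymus was 0.84 in the First batch and 1.05 in the Second.

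Tigit, the inhibitory receptor that competes with CD226, was detected in 12 samples with 119.08 expected counts in all. Thymus had 1.6, 0.735, 8.54 and 5.69 CPM in replicates 1 to 4, and spleen 0.395, 2.55, 0 and 1.22 CPM. The mLN samples had 0, 0.145, 0.624 and 1.54 CPM and the iLN samples 0, 0.542 and 0.684 CPM. The values of iLN lay below those of thymus, and the other groups overlapped. That separation rests on 1 count in the shallow thymus replicate 2 (0.735 CPM, where 3 counts correspond to 2.21 CPM), beside 0.684 CPM in iLN replicate 4. LNs against spleen and thymus gave -2.70 ± 0.97 on the log2 scale (adjusted p = 0.136), which did not pass the threshold.

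The log2 ratio of Tigit to Cd226 averaged -3.13 ± 1.72 in thymus (n = 4), -5.82 ± 0.96 in spleen (n = 4), -5.71 ± 0.99 in mLN (n = 4) and -5.22 ± 0.79 in iLN (n = 3). It was 2.69 higher in thymus than in spleen and higher than in mLN (mLN minus thymus -2.58), each with a two-sided exact permutation p of 0.0571 (adjusted 0.12). For LNs against spleen and thymus the difference was -1.03 (two-sided exact permutation p = 0.23, adjusted 0.321), with -1.05 in the First batch and -1.22 in the Second. These differences did not pass the threshold. Tigit averaged 1.83 TPM in spleen, 0.993 in mLN and 0.66 in iLN, so there the added 1 TPM weighs heavily and the ratio largely follows Cd226.

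Lag3, which encodes a receptor for MHC class II, had 131 counts in 10 samples. Thymus replicate 4 had 2.28 CPM and the other thymus samples at most 0.247, and spleen samples were between 0 and 0.61 CPM. In mLN it was at 0, 2.47, 1.66 and 4.82 CPM and in iLN at 9.15, 1.9 and 0.342 CPM. The LN samples scattered over the whole range, from 0 to the highest value of all. LNs against spleen and thymus gave 2.66 ± 1.07 on the log2 scale (adjusted p = 0.192). The size depended on the samples used, with 1.17 without replicate 2, 4.15 without replicate 4, 1.52 in the First batch and 3.77 in the Second.

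Havcr2 had 28.2 expected counts, of which 17.2 were in spleen replicate 1, the sample with the most Lyz2 and Cd79a. That sample stood at 1.68 CPM, thymus replicate 1 at 0.74 CPM and the others at most at 0.542 CPM. All mLN samples were at 0, where 3 counts, the most that a count of 0 allows, correspond to 0.389 to 0.624 CPM. At this depth no difference in Havcr2 was detectable.

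Taking the 10 genes as a whole, their summed TPM was 335 to 698 in thymus, 333 to 718 in spleen, 630 to 863 in mLN and 600 to 1074 in iLN. TPM is scaled to all genes, and those of ribosomal RNA took 17.6% to 48.1% of the counts. The sums therefore also depend on the make-up of each library, and they were not tested. Within the sum, the shares were as follows. Icos took 51.5% ± 1.98 of it in iLN, against 36.1% ± 1.8 in thymus, 28.6% ± 3.23 in mLN and 25.5% ± 3.69 in spleen. Cd226 took 25.4% ± 2.93 in spleen but 6.81% ± 0.732 in iLN, 10.3% ± 2.07 in thymus and 12.8% ± 0.631 in mLN. For Cd28 the share was 33% ± 2.64 in mLN, 32% ± 3.21 in thymus, 24.1% ± 2.03 in spleen and 17.4% ± 1.29 in iLN. The share of Cd96 was similar in spleen, mLN and iLN (17.8%, 18.4% and 17.5%) and 12.9% ± 3.08 in thymus. These shares add up to a fixed whole, so that the gain of 1 gene lowers the others, and they were not tested.

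**Figure D4:**
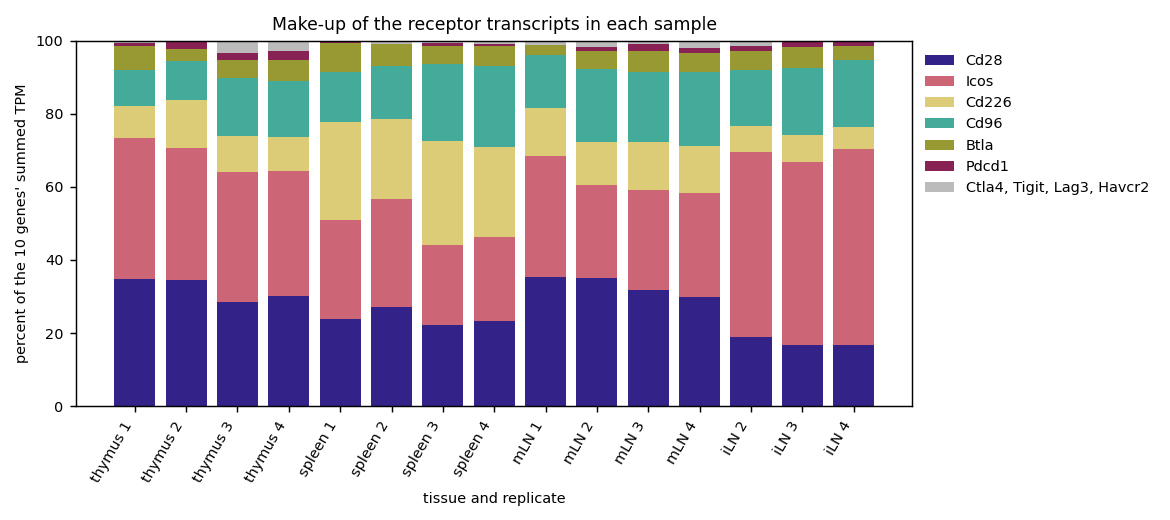
Percent of the 10 genes' summed TPM (y axis) taken by each gene in each of the 15 samples (x axis, tissue and replicate), stacked to the full sum. Icos takes 50.2% to 53.8% in the 3 iLN samples and Cd226 takes 21.7% to 28.5% in the 4 spleen samples.

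Lists of companion genes of these pathways were examined in the same model. Of the ligands of these receptors, 10 of 15 were tested and only Lgals3, which encodes galectin-3, was called in a pair of tissues. It was higher in iLN than in spleen (3.70 ± 0.75, adjusted p = 0.00751) and mLN (5.43 ± 0.84, adjusted p = 0.00147), and lower in mLN than in thymus (-5.00 ± 0.82, adjusted p = 0.00114). The median of the 10 ligands in LNs against spleen and thymus was 0.10.

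Among 14 tested further inhibitory and costimulatory receptors, 2 were called in LNs against spleen and thymus, both lower. Cd160, which shares its ligand HVEM with BTLA, had means of 127 ± 21 CPM in spleen, 57 ± 11.1 in thymus, 49.6 ± 14.4 in mLN and 27.2 ± 3.18 in iLN. In LNs against spleen and thymus it was lower by 1.21 (SE 0.17, adjusted p = 0.000194). Thymus too was called lower than spleen (-1.15 ± 0.22, adjusted p = 0.00523). Against thymus, neither mLN (-0.23 ± 0.22, adjusted p = 0.739) nor iLN (-1.05 ± 0.25, adjusted p = 0.0231) was called for Cd160. Pvrig, a further receptor of the nectin group, was lower in LNs against spleen and thymus by 1.31 (SE 0.24, adjusted p = 0.00287). Its means were 32.9 CPM in thymus, 29.3 in spleen, 15.6 in iLN and 10.6 in mLN. In that respect the nectin receptors were split, with Cd96 higher and Pvrig lower in LNs. Cd244a, which encodes the SLAM family receptor 2B4, was at 10.8 ± 5.13 CPM in thymus, 0.35 in mLN, 0.0247 in spleen and 0 in all iLN samples. It was called in thymus against each of the 3 other tissues (adjusted p = 0.00109, 0.00719 and 0.00251 against spleen, mLN and iLN).

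Downstream of the receptors, 23 of 23 signalling genes were tested. Ptpn6, encoding the phosphatase SHP-1 to which inhibitory tails bind, was higher in thymus (212 ± 62.2 CPM) than in spleen (61.4 ± 8.32), mLN (79.7 ± 31.4) and iLN (80.1 ± 21.6). Thymus against spleen gave 1.75 ± 0.22 (adjusted p = 9.47e-05), mLN against thymus -1.44 ± 0.22 (adjusted p = 0.000551) and iLN against thymus -1.42 ± 0.24 (adjusted p = 0.00182). Inpp4b, a phosphoinositide phosphatase, was higher in thymus than in spleen (0.76 ± 0.13, adjusted p = 0.00166) and iLN (-0.78 ± 0.14 in iLN against thymus, adjusted p = 0.00323). The median log2 fold change of the 23 in LNs against spleen and thymus was 0.05.

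For the genes that control these mRNAs and proteins, 17 of 17 were tested. Lrba, which protects CTLA-4 from degradation, was higher in mLN (155 ± 15 CPM) than in thymus (85.9 ± 4.64) by 0.85 ± 0.16 (adjusted p = 0.00369), as Ctla4 was. Nedd4, a ubiquitin ligase, fell by 0.74 in LNs against spleen and thymus (SE 0.10, adjusted p = 0.000165). The protease gene Furin was lower in thymus than in spleen (-1.40 ± 0.25, adjusted p = 0.00223) and higher in iLN than in thymus (1.30 ± 0.26, adjusted p = 0.00706).

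Of 14 transcription factor genes 13 were tested. Tox, known for its link to inhibitory receptor expression, was higher than in spleen in thymus (1.75 ± 0.26, adjusted p = 0.00039) and mLN (1.47 ± 0.25, adjusted p = 0.0048), with means of 104, 30.6, 85.6 and 72.1 CPM in thymus, spleen, mLN and iLN. Maf was highest in iLN (277 ± 70 CPM against 124 to 152 CPM), and was called there against spleen (0.91 ± 0.17, adjusted p = 0.00467), thymus (1.2 ± 0.18, adjusted p = 0.000411) and mLN (1.0 ± 0.18, adjusted p = 0.00472), the 3 pairs in which Icos was called. Foxo1 was higher in mLN (0.99 ± 0.15, adjusted p = 0.000462) and iLN (0.88 ± 0.16, adjusted p = 0.00314) than in thymus, and Ikzf2 higher in iLN than in thymus (1.04 ± 0.16, adjusted p = 0.000639). Tbx21, encoding the NKT1 factor T-bet, fell in LNs against spleen and thymus by 1.04 (SE 0.21, adjusted p = 0.00725).

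Genes with the most similar pattern over the 15 samples were looked up among 10145 genes, after the batch means were removed from log2 values. The samples share their tissue and library, so the Pearson r is given as a description only. Closest to Icos were Arhgap5 (0.938), the NKT17 marker Il1r1 (0.925) and Nav2 (0.924), and closest to Cd28 were Kcnn4 (0.934), Retreg1 (0.919) and Cct2 (0.883). For Cd226 these included the chemokine gene Ccl5 (0.920) and Asb2 (0.913). Cd96 was nearest to 2 overlapping long noncoding genes on opposite strands, Gm20186 (0.963) and Gm26809 (0.960), whose reads may not be told apart, and to Ly6e (0.935). Btla was nearest to Gm26624 (0.913), Ppt1 (0.853) and Lta (0.831), and Pdcd1 to Nop53 (0.866), Isyna1 (0.855) and Tars (0.854). Only the members with a mean of at least 5 CPM (Cd28, Icos, Pdcd1, Btla, Cd226 and Cd96) were compared in this way. Among these members r was highest for Icos and Cd96 (0.51) and lowest for Pdcd1 and Cd226 (-0.67). For the chromosomal neighbours Cd28 and Icos it was 0.28.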

How the data were processed

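RNA of sorted iNKT cells was made into libraries with the NuGEN Ovation Ultralow kit. According to the submitters' processing notes, reads were trimmed with cutadapt 1.7.1 and quantified with RSEM 1.2.31 and Bowtie2 2.2.9 on GRCm38, and whether counting used strand is not given in the sources used here. The expected counts that the authors deposited are RSEM's estimates of fragments per gene, unfiltered and not normalised. TPM values, also deposited by the authors, express the same estimates per effective length on a scale with a common sum. The FPKM values deposited by the authors were not used.

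The 10 genes and all gene lists were chosen with earlier results of these data known. Expected counts were rounded, filtered with edgeR's filterByExpr by tissue (minimum count 10), which kept 13600 of 48795 genes, and normalised by TMM (factors 0.755 to 1.18). The quasi-likelihood model (edgeR 4.0.16, R 4.3.3) with robust estimation held tissue and batch, and p-values were adjusted by Benjamini-Hochberg over all genes tested. Normalised CPM used the TMM library sizes. All 10 members were named, and of each companion list the genes called. A few other genes are not reported here. Ratios were log2 of (TPM + 1) values, and tissues were compared by permuting samples exactly, two-sided. The smallest p these allow is 0.0286 for 4 samples against 4 or 3 and 0.000155 for 7 against 8. The method was tested on simulated data. Floors of 3 counts and 95% intervals were written for single values, and floors cover counting error only. Python 3.11.15 with scipy 1.17.1 was used for ratios and figures. Alternatives included DESeq2 1.42.0, limma 3.58.1 on log2 TPM, RLE normalisation, other filters, each batch alone, a replicate block, thinned counts and leaving out replicates. A few further alternatives were chosen after seeing the data: leaving out spleen replicate 1, leaving out mLN replicate 2, and counting Icos with Gm37039.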

Additional observations from a re-analysis of the deposited data

Results flagged for a closer look

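Single samples that lay far from the rest of their group were looked for in groups of 4, with Dixon's ratio of the gap to the whole range and its critical value at the 95% level. Of 29 groups, 3 held such a sample. For normally distributed values chance alone marks about 1 group in 20, a rate that need not hold for counts near 0. Cd226 in mLN replicate 1 was at 187 CPM (ratio 0.914), while the other 3 mLN samples were between 130 and 135 CPM, and this is the sample that reached the range of spleen. Lag3 in thymus replicate 4 was at 2.28 CPM (ratio 0.892), from 12 counts. Havcr2 in thymus replicate 1 was at 0.74 CPM (ratio 1.0), from 6 counts, with the other thymus samples at 0, which gives a ratio of 1.0 whatever the remaining value.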

How the results depend on the processing

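Over 21 alternatives, the 39 log2 fold changes reported for members gave 766 alternative values. Of these, 21 changed direction, 676 kept their side of the threshold, 63 lost it and 6 gained it. Only 12 of the 39 changes were called, so all 63 losses fell on those 12, and the 676 include uncalled differences that stayed uncalled. Icos in iLN was past the thresholds in 20 of 21 alternatives against spleen, 17 of 21 against thymus and 13 of 21 against mLN. In LNs against spleen and thymus, Icos passed in 17 of 20 and Cd96 in 17 of 19. Cd226 passed in 19 of 20 in thymus against spleen, 13 of 20 in iLN against spleen and 10 of 20 in mLN against thymus. Against thymus, Cd96 passed in 18 of 20 in iLN and 16 of 20 in mLN, and Ctla4 in 10 of 19 in mLN. Cd28 in mLN against spleen passed in 8 of 20. The 6 calls gained were Cd96 in iLN against spleen (DESeq2 0.70, adjusted p = 0.000445, and RLE 0.69, adjusted p = 0.00996), Ctla4 in LNs against spleen and thymus (DESeq2 3.09, adjusted p = 0.000659, and no filter on low counts 3.01, adjusted p = 0.000616), and, without that filter in edgeR, Ctla4 in iLN against thymus (4.02, adjusted p = 0.00726) and Pdcd1 in iLN against spleen (2.33, adjusted p = 0.00987).

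The changes of direction were in 4 differences near 0, none of them called. Cd28 in iLN against thymus (-0.01) was 0.01 with the replicate block, 0.12 thinned, 0.09 with limma at either pseudocount, 0.21 in the First batch and -0.20 to 0.13 on leaving out a replicate number. Icos in mLN against thymus (0.01) was -0.01 with at least 10 counts in every sample, -0.00 without the batch term, -0.15 thinned, -0.15 in the Second batch and -0.06 to 0.16 on leaving out a replicate number. Btla in mLN against spleen (0.00) was -0.04 with at least 10 counts in every sample, -0.04 without the batch term, -0.50 in the Second batch, -0.01 with only those tissues fitted and -0.19 to 0.24 on leaving out a replicate number. Cd226 in LNs against spleen and thymus (-0.09) was -0.18 to 0.03 on leaving out a replicate number.

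The 4 members called over the 4 tissues became 2 with limma on log2(TPM + 1), 2 with limma on log2(TPM + 0.1), 2 in the First batch alone, 0 in the Second batch alone, and 2 to 3 on leaving out a replicate number. Of the 10 calls between pairs, 5 and 3 were left with limma at those pseudocounts, 4 in the First batch and 0 in the Second, and 3 to 7 on leaving out a replicate number (4 without replicate 3 and 3 without replicate 4, the replicates of 2 of the 3 iLN samples). The 2 calls in LNs against spleen and thymus became 1 in the First batch, 0 in the Second, and 1 to 2 on leaving out a replicate number. The Second batch holds 7 samples with 1 from iLN, and there edgeR called 41 of all genes over the 4 tissues, against 459 with all samples. The ratio of Ctla4 to Cd28 in LNs against spleen and thymus was reversed in the First batch alone (-0.03).

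Over all genes, calls over the 4 tissues numbered 1134 without a filter, 1002 with DESeq2, 310 without the batch term, 218 and 182 with limma, 211 with thinned counts and 180 in the First batch, beside 138 to 332 on leaving out a replicate number. Samples with the same replicate number from different tissues deviated together with a mean r of 0.122 (lowest of 21 pairs 0.00151), beside 0.107 for other samples of the same batch, so the numbers were not taken as pairs. With the replicate number as a block, 10 calls between pairs, 2 in LNs against spleen and thymus and 3 over the 4 tissues were made, and the ratio differences were 1.16 for Ctla4 to Cd28, -1.20 for Tigit to Cd226 and 0.88 for Cd96 to Cd226. Ctla4, Pdcd1, Lag3, Tigit and Havcr2 had between 28.2 and 682 counts in 15 samples, which limits what can be said of them.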
